A study of Homo sapiens with 4 samples.

Results

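The genes described here encode the chains of collagens and laminins, the structural proteins of the extracellular matrix, and the subunits of integrins, the cell surface receptors that bind them. Members were chosen by symbol alone: every row of the coding gene table named as a collagen chain, a laminin chain or an integrin alpha or beta subunit was taken, and the rule itself uses no measured value. The rule found 82 of 19739 coding genes: 44 collagen genes, 12 laminin genes and 26 integrin genes, of which 18 encode alpha and 8 encode beta subunits. RNA of human cells labelled as liver cancer lines was sequenced in 4 libraries, 1 per group: cells labelled HepG2, untreated or treated, and Huh7 cells, untreated or treated. HepG2 and Huh7 are established lines derived from liver tumours. The treatment, for 24 h, was RSL3@O2-ICG NBS plus ultrasound of low frequency. RSL3 inhibits the lipid peroxide reductase GPX4, and the labels do not expand NBS. No library received the carrier, RSL3 or ultrasound alone, so their shares in any difference cannot be told apart. With 1 library per group, no difference within a line has an SD or a test.

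Values are FPKM, fragments per kilobase of transcript scaled to the depth of the library, and pairs of values within a line are given untreated first, treated second. The depth inferred per library was between 22900000 and 26400000 fragments. At least 1 FPKM was found for 11156 to 11715 coding genes. The label HepG2 was checked against 8 hepatocyte transcripts, among them albumin and transferrin. In the libraries labelled HepG2, 0 of the 8 reached 1 FPKM, and their summed level was 0.528 FPKM untreated and 0.429 FPKM treated. In Huh7, 8 of 8 reached 1 FPKM, with sums of 1599 and 1210 FPKM. The data therefore go against the liver identity of the libraries labelled HepG2, and differences between lines below are differences between these libraries.

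Collagen chains wind in threes into a triple helix. Fibril-forming collagens build tension-bearing cables, fibril-associated collagens sit on their surface, and type IV collagens form the sheet-like network of basement membranes. Laminins are cross-shaped trimers of an alpha, a beta and a gamma chain that assemble the other basement membrane sheet. Integrins are pairs of an alpha and a beta subunit. The pair decides which ligand is bound, and the bound receptor links the matrix to actin or, through ITGB4, to keratin filaments. In liver, stellate cells are the best known source of fibrillar collagen, while tumour cells of epithelial origin commonly make basement membrane chains.

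Of the 82 members, 50 reached 1 FPKM in at least 1 library: 24 collagens, 10 laminins and 16 integrins. The other 32 reached it in none, and 3 of these were listed at 0 in all 4 libraries: ITGA8, COL6A5 and COL23A1. Only 20 members reached 1 FPKM in every library, 6 of them collagens. In both libraries labelled HepG2, and in neither Huh7 library, 10 members reached 1 FPKM: COL4A2, COL4A3, COL4A4, COL5A1, COL7A1, COL9A3, COL15A1, LAMA1, LAMC3 and ITGB8. The reverse held for 8, among them COL1A2, COL4A6, COL5A2, COL14A1, COL26A1, LAMA4 and ITGAL. Over all 19739 coding genes, 13030 reached 1 FPKM in at least 1 library. For the counts in every library and in 1 line only, the share of all genes was not computed. Those counts are therefore not read as a trait of these families.

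**Figure D1:**
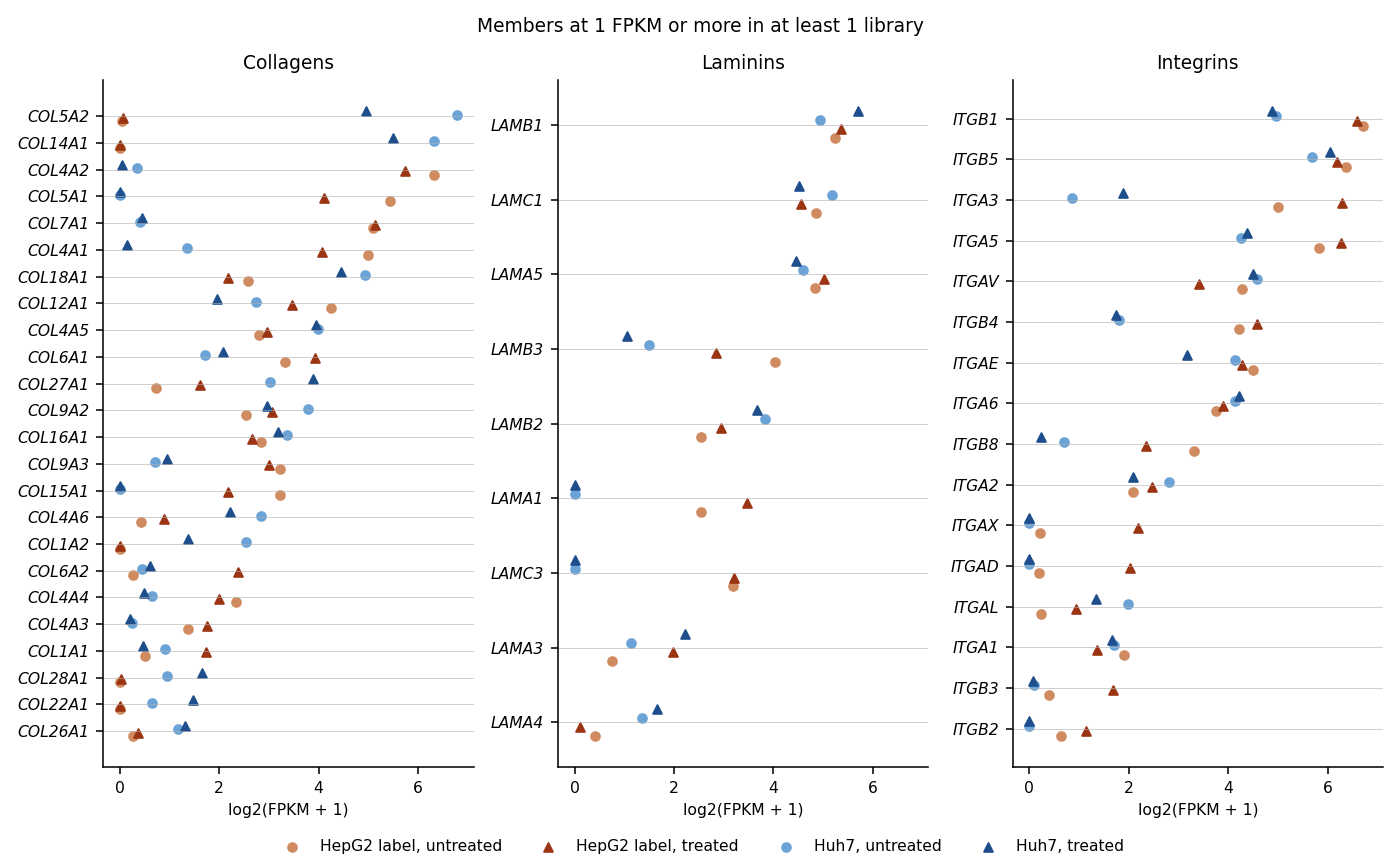
FPKM of the members shown that reached 1 FPKM in at least 1 library, in each of the 4 libraries, grouped as collagens, laminins and integrins and ordered by highest level. The horizontal axis is log2(FPKM + 1), circles are untreated and triangles treated libraries, orange is the HepG2 label and blue Huh7. Collagens such as COL5A2 and COL4A2 are at opposite ends of the scale in the 2 lines, while LAMB1, LAMC1 and LAMA5 lie at 20.8 FPKM or more in all 4 libraries.

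The largest differences among members were between the lines. Ratios below are log2((FPKM + 1)/(FPKM + 1)), which understate changes of low values, and genes were considered where at least 1 of the libraries compared had 1 FPKM or more. In untreated cells, 42 members were considered. Of these, 11 were at least 2-fold higher in Huh7, against 17.5% of all genes considered, and 18 were at least 2-fold lower, against 17.2% of all genes. That is 29 of 42 members past 2-fold in either direction, where all genes gave 34.7%. Collagens made up most of them, with 18 of 20 past 2-fold. The median ratio was -0.27 for members and -0.06 for all genes. Of the 11 higher, 7 were under 1 FPKM in the library labelled HepG2, and of the 18 lower, 11 were under 1 FPKM in Huh7. Such members entered the count through the library where they were high. Of the members nearest the 2-fold limit, COL4A3 at -1.14 and COL4A5 at 1.19 just passed it, while COL26A1 at 0.90 and LAMA4 at 0.96 fell short of it. In treated cells, 11 of 50 members considered were at least 2-fold higher in Huh7 (all genes 15.8%) and 25 were lower (all genes 16.6%).

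A limma fit over 13030 genes, with treatment as a covariate, tested the line term. It has 1 residual degree of freedom and treats the untreated and treated library of a line as replicates, so it describes these 4 libraries. Of the 50 members tested, 13 were higher in Huh7 (18.6% of all genes) and 18 were lower (19.1% of all genes), 31 in all (37.6% of all genes), at adjusted p under 0.05, with Benjamini-Hochberg adjustment over all genes. Calls of this term were lost when the minimum of 1 FPKM was dropped, with 0 members and 0 genes called.

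The 2 lines had different collagen repertoires of similar summed size. Summed over 44 genes, collagens came to 260 FPKM in untreated cells labelled HepG2 and 289 FPKM in untreated Huh7. In the former, network-forming collagens made up 47.0% and fibril-forming collagens 16.9%. In Huh7 these shares were 8.32% and 42.2%. In treated cells the network share was 42.6% under the HepG2 label and 12.3% in Huh7, and the fibril-forming share was 10.8% and 29%.

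**Figure D2:**
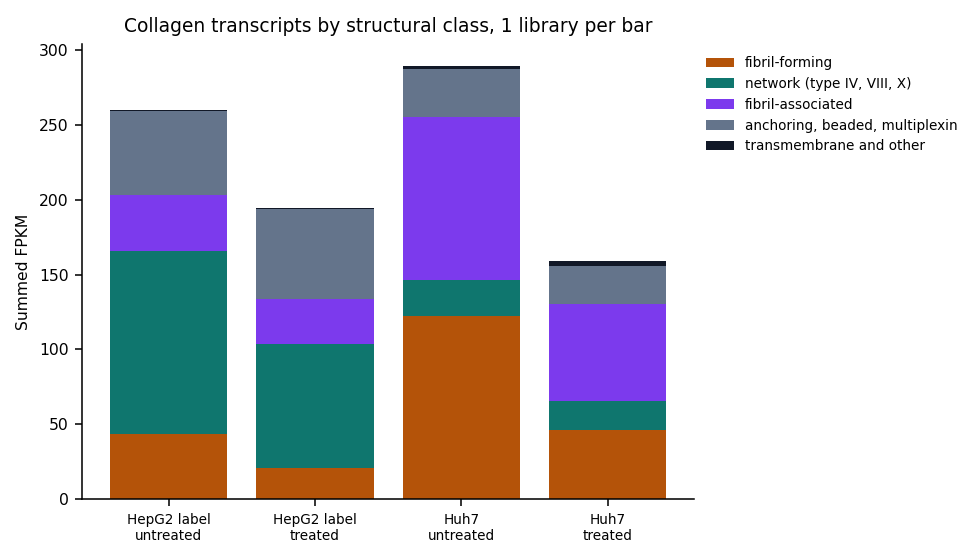
Summed FPKM of the collagen genes in 5 structural classes, stacked, with 1 bar per library. The network class is the tallest under the HepG2 label, at 122 FPKM untreated and 82.7 FPKM treated, and fibril-forming and fibril-associated collagens, at 122 and 109 FPKM in untreated cells, fill most of the Huh7 bars.

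Type IV collagens are encoded by 6 genes arranged as 3 head-to-head pairs, each pair sharing the short stretch between its start sites. The pairs make different networks: COL4A1 and COL4A2 the common basement membrane network, the other 4 the specialised networks of kidney, lung, skin and smooth muscle. The shared stretches are shown because the partners of a pair lie on either side of the same bases and differed in level as described next. RefSeq promoter windows on GRCh38.p14 held the sequences, printed 5′ to 3′ on the plus strand. Capitals mark CCAAT or GGGCGG on either strand (ATTGG and CCGCCC on the minus strand). The first is all 126 bases between the RefSeq starts of COL4A1 and COL4A2, at chr13:110307158-110307283. The second is 250 of the 418 bases between those of COL4A4 and COL4A3, at chr2:227164374-227164623. The third is 250 of the 379 bases between those of COL4A6 and COL4A5, at chrX:108439588-108439837. Gene positions listed by the authors differ from these starts. Their COL4A2 begins at 110305812, so the first stretch lies inside it. Their COL4A4 and COL4A3 are 111 bases apart, so the second stretch reaches into these genes.
COL4A1 and COL4A2: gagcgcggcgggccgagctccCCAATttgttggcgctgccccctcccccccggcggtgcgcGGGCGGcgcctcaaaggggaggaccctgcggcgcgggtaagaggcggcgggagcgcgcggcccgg
COL4A3 and COL4A4: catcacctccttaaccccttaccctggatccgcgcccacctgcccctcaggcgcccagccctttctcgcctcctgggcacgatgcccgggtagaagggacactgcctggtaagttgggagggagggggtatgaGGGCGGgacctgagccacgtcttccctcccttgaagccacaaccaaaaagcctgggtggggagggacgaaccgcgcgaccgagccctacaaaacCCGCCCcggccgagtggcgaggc
COL4A5 and COL4A6: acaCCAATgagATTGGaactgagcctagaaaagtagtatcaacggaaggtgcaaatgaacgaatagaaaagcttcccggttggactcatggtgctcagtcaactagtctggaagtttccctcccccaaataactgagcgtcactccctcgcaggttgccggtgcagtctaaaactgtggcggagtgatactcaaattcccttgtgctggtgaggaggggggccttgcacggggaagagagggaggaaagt

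The COL4A1 and COL4A2 stretch held 1 CCAAT and 1 GGGCGG, with 20 CpG dinucleotides and 80.2% G or C. CCAAT occurred in 21.1% and GGGCGG in 34.6% of all 35097 RefSeq promoter windows of that length, whose median was 6 CpG. The COL4A3 and COL4A4 stretch held 2 GGGCGG and 17 CpG, and the COL4A5 and COL4A6 stretch held 2 CCAAT and 8 CpG. At that length CCAAT occurred in 32.0% and GGGCGG in 42.6% of all windows, with a median of 11 CpG. TATAAA and TGANTCA, searched on both strands and not overlapping these motifs, were in none of the 3 stretches. Over the 58 members matched to RefSeq windows, CCAAT was in 13 and GGGCGG in 31 of the 250-base windows. A match is a description of letters, not of factor binding.

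COL4A2 (chromosome 13, 110305812 to 110513209, positions as listed by the authors and matching GRCh38) was at 78.7 and 52.4 FPKM under the HepG2 label and at 0.278 and 0.0326 FPKM in Huh7. Both HepG2-labelled values lie far above both Huh7 values. In the limma line term COL4A2 had the smallest adjusted p of any member, at 9.57e-06, with a log2 difference of -5.83 (SE 0.259, 2 libraries per line). COL4A1 was at 30.9 and 15.8 FPKM under the HepG2 label and 1.54 and 0.109 FPKM in Huh7. It was higher under the HepG2 label (line term -3.79, limma adjusted p = 5.97e-05). COL4A2 exceeded COL4A1 under the HepG2 label, 2.55-fold untreated and 3.31-fold treated. The order was reversed in Huh7, where COL4A1 exceeded COL4A2 5.56-fold and 3.34-fold. In treated Huh7 that fold rests on an inferred 16 fragments of COL4A1 and 5 of COL4A2.

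Both genes of that pair were lower in treated than in untreated cells in both lines. For COL4A1 the log2 ratio was -0.92 under the HepG2 label and -1.20 in Huh7, where it was 1 of 3 members at least 2-fold lower. The Huh7 value rests on an inferred 270 fragments untreated and 16 treated. For COL4A2 it was -0.58 and -0.31. In Huh7 COL4A2 was under the minimum of 1 FPKM in both libraries, with an inferred 48 fragments untreated and 5 treated. The summed type IV level went from 122 to 81.3 FPKM under the HepG2 label and from 23.6 to 18.8 FPKM in Huh7.

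The X-linked pair ran the other way between lines. COL4A5 was at 5.93 and 6.81 FPKM under the HepG2 label and 14.8 and 14.4 FPKM in Huh7. COL4A6 was at 0.341 and 0.859 FPKM under the HepG2 label and 6.21 and 3.67 FPKM in Huh7. Both were higher in Huh7 (line terms 1.08 and 1.88, limma adjusted p = 0.0125 and 0.00495). COL4A4 was at 4.08 and 3.02 FPKM under the HepG2 label and at 0.566 and 0.401 FPKM in Huh7, and its partner COL4A3 was at 1.61 and 2.39 against 0.185 and 0.155 FPKM. Of the 6 type IV chains, 4 were thus lower and 2 higher in Huh7.

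**Figure D3:**
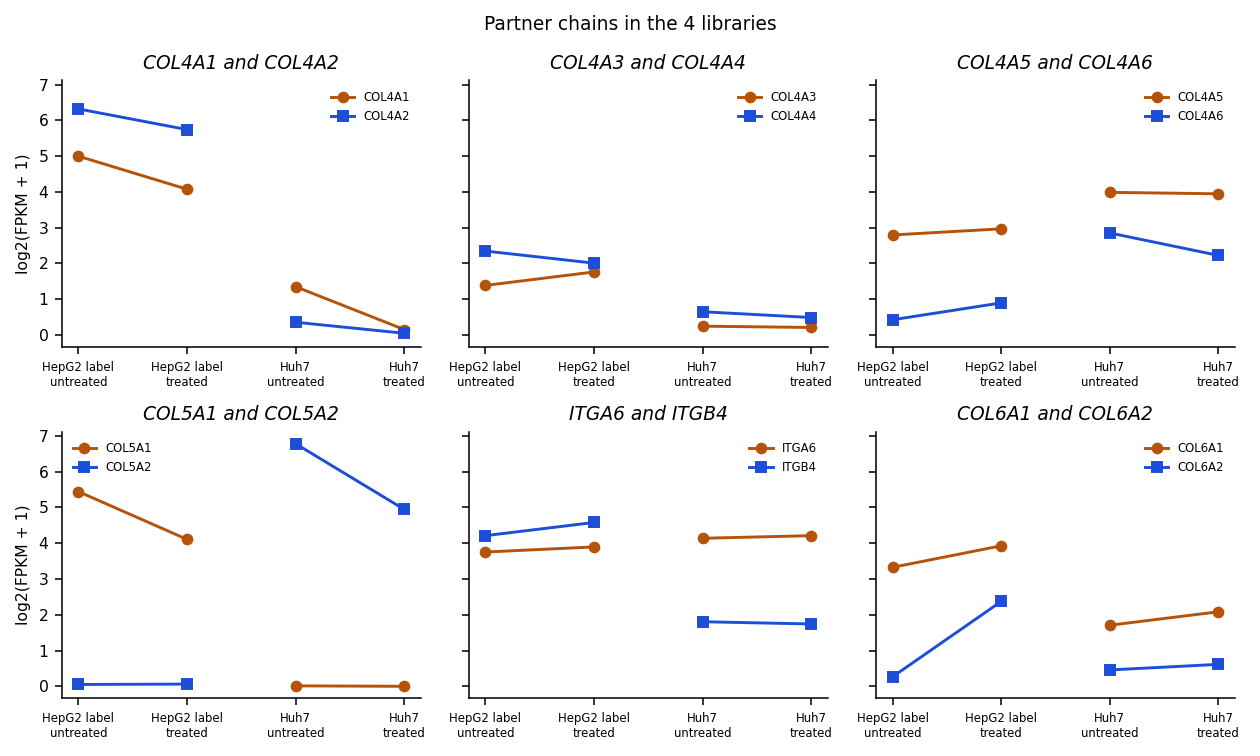
Log2(FPKM + 1) of both genes of 6 partner pairs in each library, 1 panel per pair and 1 point per gene and library, with lines joining untreated and treated cells of a line. COL4A1 and COL4A2 are both high under the HepG2 label and low in Huh7, while COL5A1 and COL5A2 swap places, with COL5A1 at 42.5 FPKM in untreated cells labelled HepG2 and COL5A2 at 108.8 FPKM in untreated Huh7.

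Type V collagen is a fibril-forming collagen that seeds and limits the width of type I fibrils, and its common trimer holds COL5A1 and COL5A2 chains. COL5A1 (chromosome 9, 134641774 to 134844843) was at 42.5 and 16.2 FPKM under the HepG2 label and at 0.00885 and 0 FPKM in Huh7. COL5A2 (chromosome 2, 189031898 to 189225312) was at 0.0361 and 0.0438 FPKM under the HepG2 label and at 108.8 and 29.8 FPKM in Huh7. Each line thus had 1 of the 2 chains at a high level and the other near 0. COL5A1 exceeded COL5A2 1176-fold in untreated cells labelled HepG2, and COL5A2 exceeded COL5A1 12297-fold in untreated Huh7, folds whose lower value rests on very few fragments. The line term was -4.77 for COL5A1 (SE 0.361, limma adjusted p = 8.05e-05) and 5.81 for COL5A2 (SE 0.423, limma adjusted p = 6.69e-05).

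The type V chain that was high in a line was lower after treatment in that line. COL5A1 had a log2 ratio of -1.33 under the HepG2 label, the lowest of any member considered there. COL5A2 had a ratio of -1.83 in Huh7, the lowest there. In plain FPKM, COL5A2 was 3.65-fold lower in treated Huh7, with an interval for counting error of -1.91 to -1.82 on the log2 scale (exact, 95%). COL3A1 lies 19151 bases from COL5A2 on chromosome 2 and encodes type III collagen. It was at 0.126 FPKM or less in all 4 libraries, so COL5A2 exceeded it 1470-fold in untreated and 237-fold in treated Huh7.

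Type I collagen, the most abundant collagen of tendon, bone and scar, is a trimer of COL1A1 and COL1A2 chains. COL1A1 was at 0.423 and 2.32 FPKM under the HepG2 label and at 0.889 and 0.392 FPKM in Huh7. COL1A2 was listed at 0 under the HepG2 label with and without treatment and was at 4.83 and 1.60 FPKM in Huh7. COL1A1 was higher in treated cells labelled HepG2 (log2 ratio 1.22), and COL1A2 was lower in treated Huh7 (-1.16). COL27A1, a fibril-forming collagen of cartilage, was at 0.660 and 2.06 FPKM under the HepG2 label and at 7.12 and 13.9 FPKM in Huh7. Unlike the other fibril-forming chains named here, it was higher after treatment in both lines, with ratios of 0.88 and 0.87, short of 2-fold.

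Among fibril-associated collagens, COL14A1 was the most abundant in Huh7. It was at 0 and 0.00539 FPKM under the HepG2 label and at 79.4 and 44.0 FPKM in Huh7. The line term was 5.91 (SE 0.30, limma adjusted p = 1.64e-05), and the ratio of treated to untreated Huh7 was -0.84. COL12A1 was at 17.97 and 10.1 FPKM under the HepG2 label and 5.66 and 2.86 FPKM in Huh7. It had nearly the same ratio of treated to untreated cells in both lines, -0.77 and -0.79. Of the type IX collagen chains, which decorate cartilage fibrils, COL9A2 was at 4.79 and 7.39 FPKM under the HepG2 label and 12.9 and 6.84 FPKM in Huh7, so its ratios had opposite signs, 0.54 and -0.83. COL9A3 was at 8.35 and 7.04 FPKM under the HepG2 label and at 0.647 and 0.925 FPKM in Huh7. COL16A1, also of this class, was at 6.21 and 5.31 FPKM under the HepG2 label and 9.33 and 8.14 FPKM in Huh7.

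Type VI collagen forms beaded filaments at cell surfaces, from COL6A1, COL6A2 and usually COL6A3 chains. COL6A1 was at 9.03 and 14.2 FPKM under the HepG2 label and 2.27 and 3.24 FPKM in Huh7. COL6A2 was at 0.201 and 4.17 FPKM under the HepG2 label and at 0.373 and 0.530 FPKM in Huh7. The treated library labelled HepG2 stands apart from the other 3. Its ratio, 2.11, was the highest of any member in that line. In plain FPKM the fold was 20.7, from an inferred 18 fragments to 335, with an exact 95% interval of 3.68 to 5.14 on the log2 scale that covers counting error only. COL6A1 exceeded its neighbour COL6A2, 93046 bases away on chromosome 21, by 44.8-fold in untreated and 3.41-fold in treated cells labelled HepG2, and by 6.08-fold in untreated Huh7. COL6A3 was at 0.155 FPKM or less throughout.

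COL7A1, the anchoring fibril collagen that ties epidermal basement membrane to dermis, was at 33.4 and 34.1 FPKM under the HepG2 label and 0.319 and 0.373 FPKM in Huh7. It was lower in Huh7 (line term -4.69, limma adjusted p = 2.13e-05), and its ratios to treatment were 0.03 and 0.06. COL15A1 and COL18A1 are the multiplexin collagens of basement membrane zones, and COL18A1 carries the endostatin fragment. COL15A1 was at 8.34 and 3.53 FPKM under the HepG2 label, a ratio of -1.04, and listed at 0 in Huh7. COL18A1 was at 4.96 and 3.53 FPKM under the HepG2 label and 29.4 and 20.8 FPKM in Huh7. Of its exonic bases, 16.4% overlap SLC19A1, and the strand setting of the counting was not given in the sources used here.

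Summed over all collagen genes, the level was 25.3% lower in treated than untreated cells labelled HepG2, at 194 against 260 FPKM. It was 45.0% lower in Huh7, at 159 against 289 FPKM. A pair of genes carried most of each difference: COL4A2 and COL5A1 were lower by 26.3 and 26.2 FPKM under the HepG2 label, and COL5A2 and COL14A1 by 79.0 and 35.4 FPKM in Huh7. Without that pair, treated over untreated was 0.904 and 0.843. LUM, the fibroblast marker lumican, was also lower in treated Huh7, at 31.7 and 8.05 FPKM, against 0.0146 and 0.0162 FPKM under the HepG2 label. The summed level of 9 fibroblast and stellate cell markers was 33.3 and 9.52 FPKM in Huh7 and 12.4 and 8.87 FPKM under the HepG2 label. LUM was the 1 marker of 9 that reached 1 FPKM in Huh7. Under the HepG2 label 4 of 9 did so untreated and 3 treated: PDGFRB was at 5.67 and 1.67 FPKM, TAGLN at 3.59 and 1.25 FPKM, DCN at 1.48 and 0.269 FPKM and ACTA2 at 1.22 and 5.23 FPKM. PDGFRA, THY1, FAP and LRAT were under 1 FPKM in every library. The part of such cells in the collagen values was not tested. In bulk RNA, fewer cells of a type and less RNA per cell cannot be told apart.

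Of 10 laminins considered in untreated cells, 5 were past 2-fold between the lines, where all genes gave 34.7%. The chains of the most widespread epithelial laminins were high in all libraries. LAMB1 was at 36.8 and 39.9 FPKM under the HepG2 label and 29.6 and 51.0 FPKM in Huh7. LAMC1, the gamma chain that most laminins share, was at 28.0 and 22.6 FPKM and at 35.1 and 22.0 FPKM. LAMA5 was at 27.5 and 31.6 FPKM and at 23.3 and 20.8 FPKM. None of these 3 passed the line term (limma adjusted p = 0.205 to 0.954). LAMB2, the alternative beta chain, was at 4.80 and 6.75 FPKM under the HepG2 label and 13.2 and 11.7 FPKM in Huh7.

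LAMB3 (chromosome 1, 209614870 to 209652425) and LAMA3 are chains of the laminin that anchors skin epithelium at hemidesmosomes. LAMB3 was at 15.4 and 6.16 FPKM under the HepG2 label and 1.84 and 1.08 FPKM in Huh7. It was lower in Huh7 (line term -2.16, limma adjusted p = 0.00138). Its ratio of treated to untreated cells was -1.20 under the HepG2 label, 1 of the 3 members at least 2-fold lower there, and -0.45 in Huh7.

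LAMA3 (chromosome 18, 23689443 to 23956222) was higher after treatment in both lines. It was at 0.675 and 2.93 FPKM under the HepG2 label and at 1.20 and 3.68 FPKM in Huh7. Both treated values exceed both untreated values. The ratios were 1.23 and 1.09, and in plain FPKM the folds were 4.34 and 3.06, with exact 95% counting intervals of 1.88 to 2.36 and 1.43 to 1.80 on the log2 scale. In the limma treatment term LAMA3 had a log2 difference of 1.16 (SE 0.289, higher in 2 of 2 lines) and an adjusted p of 0.259, which does not pass. In Huh7 its ratio was short of 2-fold when libraries were scaled by size factors.

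LAMA1 and LAMC3 were found only under the HepG2 label at 1 FPKM or more. LAMA1, the alpha chain of the embryonic laminin, was at 4.79 and 10.1 FPKM there, a ratio of 0.94, and listed at 0 in Huh7. Its exonic bases overlap AP002409.1 by 10.3%. LAMC3 was at 8.15 and 8.22 FPKM and listed at 0 in Huh7. LAMA4, a chain of vessel and muscle laminins, was at 0.325 and 0.0775 FPKM under the HepG2 label and at 1.57 and 2.14 FPKM in Huh7. Summed over 12 genes, laminin levels were nearly the same with and without treatment: 126.8 and 128.5 FPKM under the HepG2 label, and 115.4 and 116.8 FPKM in Huh7.

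Integrin beta subunits set the receptor families. ITGB1, which pairs with most alpha subunits that bind collagen, laminin and fibronectin, was at 104.2 and 95.6 FPKM under the HepG2 label and 30.3 and 28.7 FPKM in Huh7. It was lower in Huh7 (line term -1.73, limma adjusted p = 0.000694). ITGB5, a partner of ITGAV in binding vitronectin, was at 81.2 and 71.5 FPKM under the HepG2 label and 50.7 and 65.2 FPKM in Huh7. ITGB1 made up 49% and 48.3% of the summed beta subunit level under the HepG2 label, and ITGB5 made up 60.1% and 67.6% of it in Huh7. The most abundant beta subunit thus differed between the lines. Of the 50-base stretches of ITGB1, 15.0% are shared with AC022149.1, so its reads could be split.

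Among other beta subunits, ITGB4, which with ITGA6 binds laminin in hemidesmosomes, was at 17.5 and 22.9 FPKM under the HepG2 label and 2.49 and 2.35 FPKM in Huh7 (line term -2.62, limma adjusted p = 0.000312). ITGA6 itself was at 12.5 and 13.9 FPKM and at 16.6 and 17.5 FPKM, so it exceeded ITGB4 in Huh7 and not under the HepG2 label. ITGB8, which with ITGAV releases TGF-beta from its latent complex, was at 8.89 and 4.07 FPKM under the HepG2 label and 0.625 and 0.170 FPKM in Huh7. Its ratio under the HepG2 label was -0.96, just short of 2-fold. ITGAV was at 18.4 and 9.68 FPKM under the HepG2 label, a ratio of -0.86, and at 23.0 and 21.8 FPKM in Huh7, a ratio of -0.08. ITGB3, another ITGAV partner, was at 0.317 and 2.19 FPKM under the HepG2 label and at 0.0663 and 0.0547 FPKM in Huh7. Its value is uncertain, because 51.6% of its exonic bases overlap AC068234.1. ITGB6 was at 0.0813 FPKM or less in all libraries.

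ITGA3 (chromosome 17, 50055968 to 50090481), the alpha subunit of a laminin receptor of epithelia, was at 31.2 and 77.7 FPKM under the HepG2 label. In Huh7 it was at 0.808 and 2.68 FPKM. It was lower in Huh7 (line term -4.29, SE 0.251, limma adjusted p = 2.6e-05), and in each line the treated library was higher. The ratios were 1.29 and 1.02, with plain folds of 2.49 and 3.31. Exact 95% counting intervals were 1.26 to 1.37 and 1.42 to 2.04 on the log2 scale. The treatment term for ITGA3 was 1.16 (SE 0.251, higher in 2 of 2 lines), and its adjusted p of 0.221 in limma was the smallest of any member and did not pass. Its Huh7 ratio was short of 2-fold under both scaling alternatives.

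ITGA5, the fibronectin receptor subunit, was at 55.9 and 76.0 FPKM under the HepG2 label and 18.1 and 19.7 FPKM in Huh7. The collagen receptor subunits ITGA1 and ITGA2 were lower: ITGA1 was at 2.76 and 1.57 FPKM and at 2.26 and 2.16 FPKM, and ITGA2 was at 3.23 and 4.56 FPKM and at 5.97 and 3.25 FPKM. ITGAE, which pairs with ITGB7 on lymphocytes to bind E-cadherin, was at 21.7 and 18.4 FPKM under the HepG2 label and 16.5 and 8.05 FPKM in Huh7. ITGB7 was at 0.255 FPKM or less in all 4. ITGAE thus stood above ITGB7 in every library. Of the exonic bases of ITGB7, 42.1% overlap ZNF740, so its low values are uncertain too.

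ITGAX and ITGAD, leukocyte alpha subunits that pair with ITGB2 and lie 10314 bases apart on chromosome 16, were both high in a single library. ITGAX (31355134 to 31382997) was at 0.152 and 3.54 FPKM under the HepG2 label and listed at 0 in Huh7. ITGAD (31393312 to 31426505) was at 0.151 and 3.08 FPKM under the HepG2 label and listed at 0 in Huh7. Their ratios were 1.98 and 1.82, and their inferred fragments went from 18 to 386 and from 15 to 279. ITGB2 was at 0.547 and 1.20 FPKM under the HepG2 label and 0 in Huh7. ITGAM, another alpha subunit of this family, was at 0.131 FPKM or less throughout, and ITGAL was at 0.172 and 0.912 FPKM under the HepG2 label and at 2.94 and 1.54 FPKM in Huh7. Of 6 blood cell markers, PTPRC and CD3E, which nearly all leukocytes and all T cells carry, were at 0 in all 4 libraries. CD68, a lysosomal protein high in macrophages, was at 1.38 and 20.7 FPKM under the HepG2 label and 0.521 and 2.83 FPKM in Huh7. The summed blood cell markers were 1.54 and 21.4 FPKM under the HepG2 label and 4.72 and 4.70 FPKM in Huh7. The part of blood cells in the ITGAX and ITGAD values was not tested.

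Across the members considered, 25% differed past 2-fold between treated and untreated cells under the HepG2 label and 14.7% in Huh7. Under the HepG2 label, 40 members were considered: 7 were higher, against 6.7% of all genes, and 3 were lower, against 2.43% (10 of 40 in either direction, against 9.14%). Of the 7, 6 were under 1 FPKM in the untreated library, so they entered the count through the library in which they were high. The exception was ITGA3. In Huh7, 34 members were considered: 2 were higher, against 3.88% of all genes, and 3 were lower, against 2.19% (5 of 34 in either direction, against 6.07%). All 3 of the latter were collagens. The median ratio of the members considered was 0.13 under the HepG2 label, beside 0.09 for all genes, and -0.12 in Huh7, beside 0.10. By family, it was -0.19 for collagens, 0.15 for laminins and 0.37 for integrins under the HepG2 label, and -0.48, -0.16 and -0.06 in Huh7.

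The lines share no control library, and 24 members were considered in both. Of these, 7 had positive ratios in both (29.2%, and 38.5% of the 10758 genes considered in both), 10 negative ratios in both (41.7%, all genes 23.3%) and 7 opposite signs (29.2%, all genes 38.2%). With size factors, which lower the median of all genes, the members split as 4, 10 and 10, and all genes as 27.9%, 33.1% and 39%. ITGA3 and LAMA3 were at least 2-fold higher in both (all genes 0.716%), and 0 members were at least 2-fold lower in both (all genes 0.307%). With size factors 0 were higher and 1, COL4A1, lower in both. Across the 24 genes, which are not independent, Pearson's r was 0.649 and Spearman's rho 0.571. In the limma treatment term with line as a block, 0 of 50 members and 0 of 13030 genes (0%) passed. At unadjusted p under 0.05, 8 members and 1534 genes did.

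**Figure D4:**
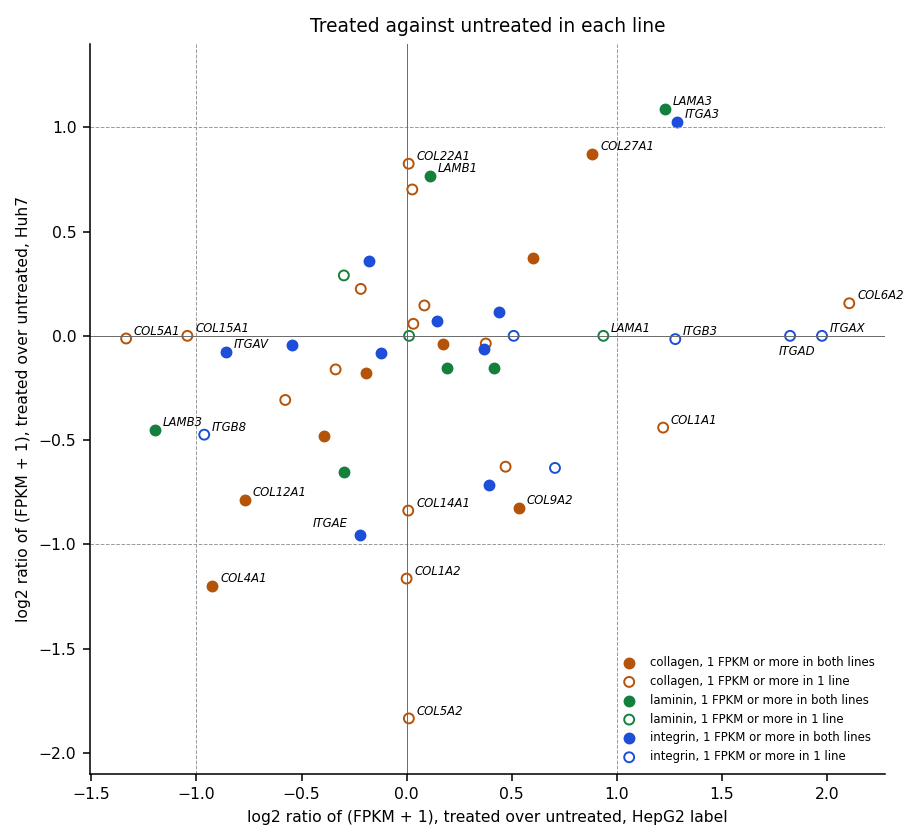
Log2 ratio of treated to untreated FPKM + 1 under the HepG2 label (horizontal) and in Huh7 (vertical), for the members shown that had 1 FPKM or more in at least 1 library. Dashed lines mark 2-fold. LAMA3 and ITGA3 lie in the upper right corner past both lines, COL4A1 is low on both axes, and ITGAX, ITGAD and COL6A2 are high on the horizontal axis alone.

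The genes that make, anchor and remodel these proteins were read from lists. Beside each count stand the shares of all genes past 2-fold given above, 6.7% higher and 2.43% lower under the HepG2 label and 3.88% higher and 2.19% lower in Huh7. Of 33 genes for collagen synthesis and crosslinking, 29 were considered under the HepG2 label and 0 were past 2-fold, with a median of 0.07. In Huh7, 1 of 26 was higher and 2 were lower, with a median of 0.03. The gene that was higher, MIA3, encodes the TANGO1 receptor that loads collagen for export. It was at 7.19 and 14.9 FPKM under the HepG2 label, a ratio of 0.96, and at 5.94 and 13.4 FPKM in Huh7, a ratio of 1.05. The 2 that were lower encode lysyl oxidases, which crosslink collagen: LOX was at 4.11 and 1.17 FPKM and LOXL4 at 29.5 and 14.0 FPKM in Huh7. Of 18 other basement membrane genes, 0 of 10 were past 2-fold under the HepG2 label and 1 of 10 was lower in Huh7, NID2, which links laminin to type IV collagen, at 57.1 and 26.4 FPKM.

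Of 20 other integrin ligands, 1 of 10 considered was higher under the HepG2 label, MFGE8, an ITGAV ligand, at 4.97 and 14.7 FPKM. In Huh7, 1 of 14 was lower, the microfibril gene FBN2, at 25.4 and 7.79 FPKM. Another list gave 15 genes, for other collagen or laminin receptors and for membrane proteins that go with matrix receptors, such as CD47, CD9 and CD151. Here 1 of 12 considered was lower under the HepG2 label, the syndecan SDC2, at 21.3 and 9.85 FPKM. In Huh7, 1 of 10 was higher, CD47, at 4.52 and 10.6 FPKM. SDC2, at 57.3 and 27.1 FPKM, and the laminin receptor DAG1, at 42.9 and 8.59 FPKM, were lower there. Of 37 integrin adaptors, 3 of 36 were higher and 1 lower under the HepG2 label, and 1 of 34 was higher and 1 lower in Huh7. Under the HepG2 label, LIMS2 (9.55 and 22.1 FPKM), TGFB1I1 (10.6 and 23.9 FPKM) and CRK (11.2 and 24.1 FPKM) were higher. FERMT2, a kindlin that activates integrins, was lower there, at 34.0 and 16.2 FPKM. In Huh7, DST was higher, at 10.8 and 30.2 FPKM, and CRK was lower, at 13.5 and 6.19 FPKM. Of 28 matrix proteases, 5 of 18 were higher and 1 lower under the HepG2 label, and 0 of 14 were past 2-fold in Huh7. Their median under the HepG2 label was 0.45.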

How the data were processed

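RNA was sequenced from 4 cultures, and groups were taken from the labels. The authors deposited FPKM per coding gene and per long noncoding transcript, 1 column per library, per the file headers. The submitters' processing notes list, without roles, the aligners HISAT2 and Bowtie2 2.2.8, the assembler StringTie 1.3.1, SAMtools 0.1.18, Picard 1.96, GATK and Cuffdiff 2.1.1. Genome build and strandedness were not given in the sources used here, but positions match GENCODE 29 on GRCh38. The authors' deposited enrichment tables hold p-values and corrected p-values per term.

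The gene families that give the members, and the lists, were chosen with earlier results of these data known. Ratios used a pseudocount of 1 FPKM and a minimum of 1 FPKM in at least 1 library compared, with a 2-fold threshold. Members were named if past 2-fold, most abundant, most different between lines or partner chains. limma 3.58.1 (R 4.3.3) was fitted to log2(FPKM + 1) of the whole table with a trend of variance on mean level, with line and treatment as terms, and was tested on simulated data. Lines pair the libraries by the labels. Depth was inferred from the FPKM step of 1 fragment in low genes, and intervals from it (exact, 95%) cover counting error only. The alternatives were another pseudocount, other minimums and other scalings and, for limma, no trend and no block. Some member values are not reported here, though counts and sums include them.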

Additional observations from a re-analysis of the deposited data

Results flagged for a closer look

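For 7 of the 24 members considered in both lines (29.2%, all genes 38.2%), the ratios of treated to untreated cells had opposite signs in the 2 lines. With size factors this held for 10 members (41.7%, all genes 39%). There was 1 library per group, so that the difference between lines was not tested. The value is the log2 ratio in Huh7 minus that under the HepG2 label. It was -1.36 for COL9A2, a type IX collagen chain, whose ratio was 0.54 under the HepG2 label and -0.83 in Huh7. For ITGA2, the collagen receptor subunit, it was -1.11, from ratios of 0.39 and -0.71. The remaining 5 differed by less. The value was -0.57 for LAMB2, 0.54 for ITGB5, -0.43 for ITGB4, -0.35 for LAMA5 and -0.21 for COL4A5. Some of the ratios behind these values were small, such as -0.04 for COL4A5 and -0.06 for ITGB4 in Huh7. ITGB5 is the only one of the 7 that was higher in treated Huh7 and lower in treated cells labelled HepG2.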

How the results depend on the processing

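Counts of members past 2-fold between untreated lines stayed within 1.5 times of those reported under all 5 alternatives. Treatment counts were less stable. Under the HepG2 label, 7 members were higher, and 1 with a minimum of 5 FPKM, while 3 were lower, and 5 with size factors. In Huh7, 2 were higher, and 4 with a pseudocount of 0.1 FPKM, 0 with a minimum of 5 FPKM, 1 after rescaling to equal sums and 0 with size factors. There 3 were lower, and 5 with a pseudocount of 0.1 FPKM, 1 with a minimum of 5 FPKM and 5 with size factors. A higher minimum leaves out low members by construction. For all genes, the pseudocount of 0.1 FPKM gave 1331 higher in place of 794 under the HepG2 label, and 970 higher and 422 lower in place of 464 and 261 in Huh7. Size factors gave 299 higher in Huh7. Size factors moved the median of all genes from 0.09 to -0.02 under the HepG2 label and from 0.10 to -0.03 in Huh7. The member median became 0.01 and -0.26, and it was -0.12 under the HepG2 label with a minimum of 5 FPKM. Among 545 values of single members under these alternatives, 5 changed sign, all with size factors and all at 0.12 or less in size: COL7A1, LAMB1 and LAMC3 under the HepG2 label, and ITGA5 and ITGA6 in Huh7. Of those past 2-fold, 0 changed sign. The limma treatment term called 0 members under all 7 alternatives, and 1 gene in place of 0 with a minimum of 5 FPKM or after rescaling. The limma line term called 31 members and 4905 genes, and 0 and 0 with no minimum. The cause was not tested. Without the replicate block (pairing by the other factor) limma called 0 members for treatment and 30 members and 3606 genes for line. With 1 library per group, no replicate could be left out. Depth limits members under about 1 FPKM, and repeat cultures were not analysed here.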

Other observations

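The long noncoding table held 29 transcripts named for 15 members, and 4 of them reached 1 FPKM in at least 1 library. ITGA5-OT1, an assembled transcript, was at 9.44 and 13.2 FPKM under the HepG2 label and 2.02 and 2.2 FPKM in Huh7. COL4A4-OT1 was at 1.15 and 0.560 FPKM under the HepG2 label and listed at 0 in Huh7. Both were higher in the libraries where ITGA5 and COL4A4 were higher. The 2 annotated transcripts that reached 1 FPKM were also higher under the HepG2 label, as their host genes were. Under that label they differed from their host genes in the direction of treated against untreated cells. LAMA5-AS1-203 was at 1.08 and 0.517 FPKM under the HepG2 label, where LAMA5 was at 27.5 and 31.6 FPKM. In Huh7 it was at 0.0509 and 0.0320 FPKM, and LAMA5 was at 23.3 and 20.8 FPKM. ITGB1-DT-201 was at 0.511 and 1.16 FPKM under the HepG2 label, where ITGB1 was at 104.2 and 95.6 FPKM. In Huh7 it was at 0.400 and 0.0410 FPKM, and ITGB1 was at 30.3 and 28.7 FPKM. The share of all long noncoding transcripts at 1 FPKM was not computed. Reads of an overlapping transcript and its host gene cannot be told apart without strand.

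The authors' deposited table of KEGG pathways listed ECM-receptor interaction, which joins these 3 families, with 32 of 87 genes for the cells labelled HepG2 and a corrected p of 0.248. For Huh7 the authors' deposited table listed 26 of 87 genes and a corrected p of 0.207. In the authors' deposited table of Gene Ontology terms, extracellular matrix held 129 of 406 genes under the HepG2 label (corrected p = 4.09e-15) and 101 in Huh7 (corrected p = 2.63e-10). Integrin complex in the authors' deposited table held 15 of 33 genes (corrected p = 0.0028) and 8 (corrected p = 0.446). The term collagen in the authors' deposited table held 25 of 104 genes (corrected p = 0.177) and 26 (corrected p = 0.00949). Basement membrane in the authors' deposited table held 29 of 93 genes (corrected p = 0.00571) and 27 (corrected p = 0.00129). The rule for choosing these genes was not given in the sources used here. By count, the authors' deposited tables name 33 of 82 members (40.2%) under the HepG2 label, 20 of them under 1 FPKM in both libraries, beside a Gene Ontology list of 3213 of 22135 background genes (14.5%). For Huh7 the authors' deposited tables name 25 of 82 members (30.5%), 16 of them under 1 FPKM in both libraries, beside a Gene Ontology list of 2438 of 22135 background genes (11%). Members were read from both kinds of table, so the denominators differ.

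In RefSeq promoter windows of 300 bases, the 33 matched members that reached 1 FPKM had a median of 24 CpG dinucleotides. The 25 matched members that did not reach it had a median of 14, the same as all 35097 windows. The same split by level was not computed for the windows of all genes. The difference is therefore not read as a trait of these families. The other 24 of the 82 members had no matched window.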
